A study of Homo sapiens with 9 samples.

Results

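The suppressors of cytokine signalling *SOCS1*, *SOCS2* and *SOCS3*, their relative *CISH*, and the kinase gene *PIM1* are genes that cytokines switch on through the JAK/STAT pathway. A cytokine receptor activates Janus kinases (JAKs), these phosphorylate STAT factors, and the STATs enter the nucleus and bind DNA at their target genes. SOCS and CISH proteins then dampen the receptor and its kinases, which closes a negative feedback loop, while PIM1 favours survival and growth of the responding cell. In T cells these genes follow interleukin signals and also receptor stimulation. Chromatin accessibility around the 5 genes was described from lists of peaks measured by FAIRE-seq (formaldehyde-assisted isolation of regulatory elements), which enriches DNA free of nucleosomes. Peaks of the 4 lists that overlapped or touched were joined into merged regions, and a region belonged to a gene when it lay in the gene body or within 50 kb of the transcription start site (TSS). The rule found 25 of the 40703 merged regions of the numbered chromosomes, X and Y, and the 25 covered 10040 bp.

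The cells were Jurkat clone E6-1, a human T cell leukaemia line, so each state was measured in 1 clone of transformed cells. The series holds 9 samples, of which 4 have a list used here, with 1 library each, and the other 5 were not analysed here. The list labelled NS DMSO is from non-stimulated cells that received the vehicle DMSO. The list labelled SW DMSO is from cells that had DMSO, then 4 h of 24 ng/mL PMA with 1 μM calcium ionophore (named ionomycin in other labels), and that were washed and rested for 1 day without the stimulus. The lists labelled NS rottlerin and SW rottlerin are from the same states after 1 h with 15 μM rottlerin, an inhibitor of protein kinase C. The labels are in doubt. The study's methods describe peak calling on its DMSO samples alone, which include freshly stimulated and re-stimulated cells, and the total of merged regions stated there is the same as that of the 4 lists here. They also give a shorter stimulation than the labels. Each list is therefore called by its label, and a difference between lists is a difference between labels, which cannot be told apart here from another assignment of the lists.

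The lists held 18998 peaks (NS DMSO), 20148 (SW DMSO), 23854 (NS rottlerin) and 30425 (SW rottlerin). Each peak carries in column 7 its fold enrichment over the total input, the unselected DNA of the same kind of cells. The lists do not give read depth, and a missing peak therefore means only that none was called at the depth of that library. With 1 library per list there is no spread between replicates, so no test was made and no value has an error. A merged region lay within 1 kb of the TSS at 8 of 10 T cell genes, against 45.0% of all protein-coding genes. The 8 were *CD3D*, *CD3E*, *CD3G*, *CD247*, *CD5*, *LCK*, *LAT* and *ZAP70*, and *CD2* and *CD7* had none. Of 8 genes that mark other cells, *COL1A1* alone had one.

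*SOCS3* had the most regions and *SOCS2* the fewest. There were 7 regions at *SOCS3*, 6 at *CISH*, 6 at *PIM1*, 5 at *SOCS1* and 1 at *SOCS2*. Of 20136 protein-coding genes, 85.6% had a region by the same rule, with a median of 3 regions and quartiles of 1 and 5. At most 1 region was found at 29.0% of coding genes, a group that includes *SOCS2*. Fewer regions than at *SOCS3* were found at 86.9% of coding genes, and fewer than at *CISH* or *PIM1* at 80.8%. All but *SOCS2*, 4 of the 5 genes, had a region within 1 kb of the TSS, against 45.0% of coding genes. At *SOCS1*, *CISH* and *PIM1*, 3 of the 5, that region held a peak in all 4 lists, against 30.4% of coding genes. The promoter region of *SOCS3* held a peak in the SW rottlerin list alone.

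**Figure D1:**
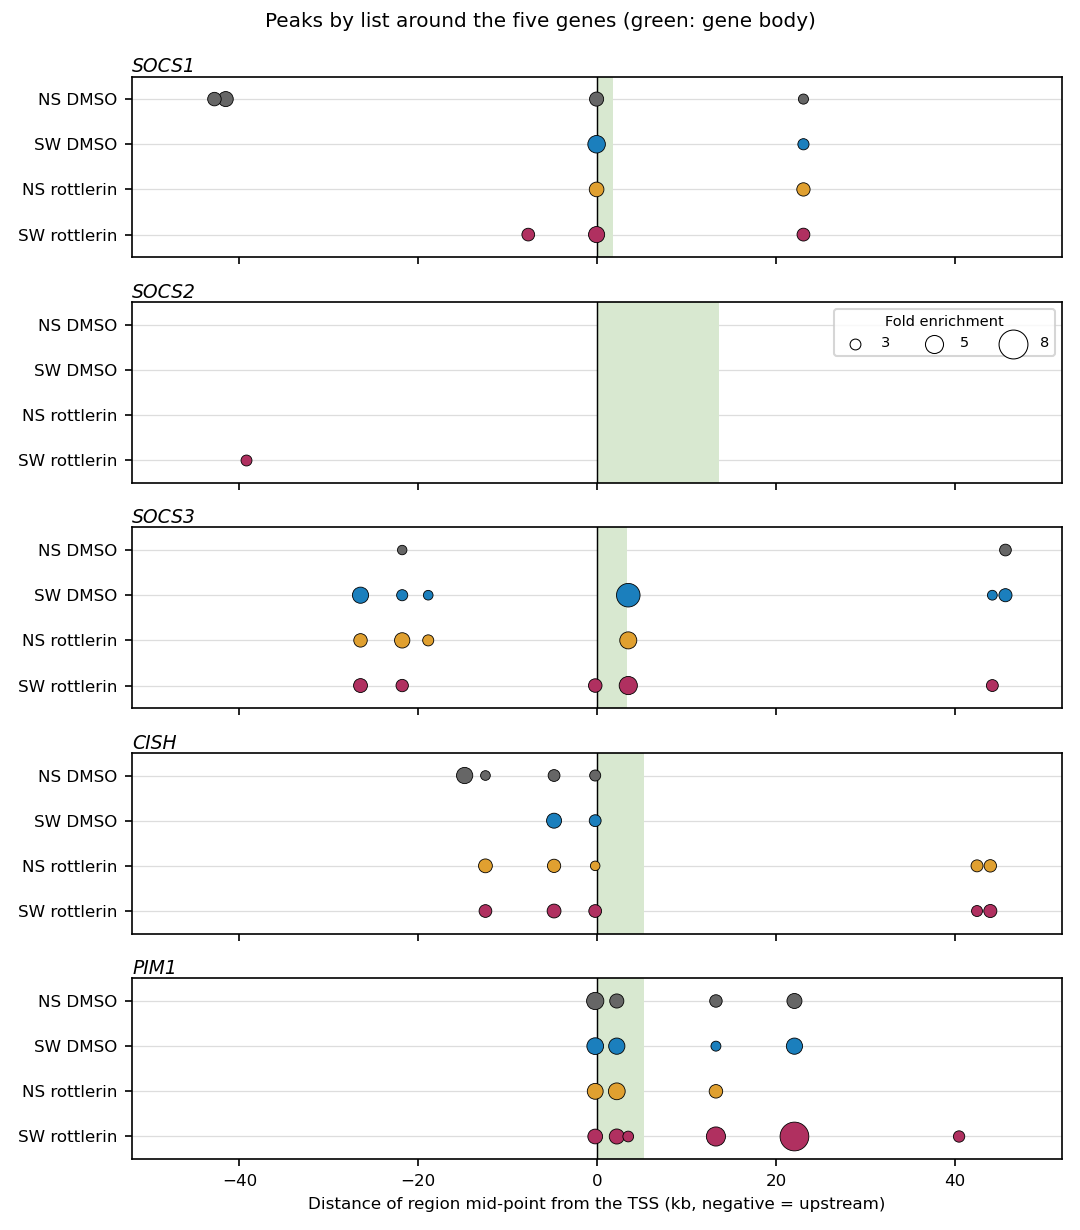
Positions of the peaks of each list around the 5 genes. The x axis is the distance of the region's mid-point from the TSS in kb, in the direction of the gene, each row is a list, and the width of a point is proportional to the fold enrichment. *SOCS1*, *CISH* and *PIM1* show a point in every row at the TSS, *SOCS2* shows a single point 39.3 kb upstream, and *SOCS3* shows 2 columns of 3 points, at 3.49 kb downstream and 26.5 kb upstream, with none in the NS DMSO row.

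The rule takes regions up to 50 kb from the TSS, so most of the sequence it covers lies away from promoters. From the TSS of their gene, 16 lay more than 10 kb away and 4 lay within 1 kb. The mid-point fell in an intron of some gene for 15 regions, in intergenic sequence for 9 and in a 5′ untranslated exon for 1. For 16 regions the nearest coding TSS was that of the feedback gene itself, and for 9 it was another gene (*RMI2*, *TNP2*, *PRM1*, *PGS1* or *HEMK1*). Widths ran from 161 to 1042 bp with a median of 291 bp, against 294 bp for all merged regions.

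A peak in all 4 lists was held by 8 regions (32%), against 26.6% of all merged regions. No NS DMSO peak was called in 11 regions (44%), against 53.5% of all merged regions. These 11 comprised 5 of the 7 regions at *SOCS3*, 2 at *CISH*, 2 at *PIM1*, 1 at *SOCS1* and the single region at *SOCS2*. At *SOCS3*, 2 regions (8% of the 25) held a peak in every list but NS DMSO, and no other gene had one, against 7.08% of all merged regions. At least 2 such regions occurred at 3.01% of coding genes. The NS DMSO list alone had a peak in 3 regions (12%), 2 at *SOCS1* and 1 at *CISH*, against 7.83%. The SW rottlerin list alone had a peak in 5 regions (20%), 2 at *PIM1* and 1 each at *SOCS1*, *SOCS2* and *SOCS3*, against 18.2%. By list, 14 of the 25 regions had a peak in NS DMSO against 46.5% of all regions, 14 in SW DMSO against 49.3%, 14 in NS rottlerin against 58.4% and 20 in SW rottlerin against 74.5%. The shares at the feedback genes were thus 56% in the first 3 lists and 80% in the last, which is also the longest. They were above the background in all lists but NS rottlerin. The share without an NS DMSO peak depended on which peaks were kept. It was 30% against 43.3% of all regions without the SW rottlerin list, and 76.5% (13 of 17 regions) against 52.1% with the higher-scoring 50% of each list.

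At *SOCS1*, whose protein binds JAKs and blocks their activity, the promoter region was present in all lists. It spanned chr16:11350010-11350218, covered the TSS and lay in an intron of a transcript of *RMI2*, a gene of the DNA repair machinery. Its fold enrichment was 3.91 in NS DMSO, 4.86 in SW DMSO, 4.06 in NS rottlerin and 4.47 in SW rottlerin. All 3 other lists were above NS DMSO, by 1.24, 1.04 and 1.14 times. The second region in all lists was 23.1 kb downstream (chr16:11326466-11327493, 1028 bp, intergenic). Its values were 2.80, 3.10, 3.69 and 3.56 in the same order, again lowest in NS DMSO. The peaks differed in extent there, from 269 bp in SW rottlerin to 869 bp in SW DMSO.

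The other 3 regions at *SOCS1* each held 1 peak and lay inside *RMI2*. NS DMSO alone had 2 of them, 41.5 kb upstream (4.17) and 42.8 kb upstream (3.75), nearest to the protamine gene *PRM1*. The third, 7.70 kb upstream (3.53), was seen only in SW rottlerin. The downstream region also held 2 copies of the STAT letters TTCNNNGAA, a palindrome that STAT factors are known to bind, and both lay under the peaks of all 4 lists. They are shown with the flanking bases on the forward strand of GRCh37, with the match in capitals, at chr16:11327111-11327140 and chr16:11327135-11327164.
SOCS1 downstream, first match: gcgttatcgtTTCCTGGAActccaactcgg
SOCS1 downstream, second match: actcggcgacTTCCCCGAAgaccggctgtg

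*SOCS2*, which limits growth hormone signalling, had no region in its gene body or at its promoter in any list. The 1 region by the rule was 39.3 kb upstream (chr12:93924189-93924349, intergenic), with a peak of 161 bp and a fold enrichment of 3.03 in SW rottlerin. That value was above 7.86% of the peaks of its list, and the nearest NS DMSO peak was 62.8 kb away. It was also the narrowest of the 25 regions.

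*SOCS3*, whose protein binds the receptors of the interleukin-6 family together with their JAKs, had the highest number of regions without an NS DMSO peak. The strongest was just downstream of the gene, 3.49 kb from the TSS and 46 bp beyond the 3′ end (chr17:76352523-76352813, 291 bp, intergenic). The fold enrichment was 6.53 in SW DMSO, 4.72 in NS rottlerin and 5.04 in SW rottlerin, and no peak was called in NS DMSO. The SW DMSO value was above 96.7% of the peaks of that list, and the values in NS rottlerin and SW rottlerin were above 71.2% and 78.9% of theirs. The 3 peaks were all 276 bp wide and lay over nearly the same stretch. The nearest NS DMSO peak was 25.1 kb away.

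The other region in every list but NS DMSO lay 26.5 kb upstream and was 283 bp wide, in an intron of *PGS1*, which encodes an enzyme of cardiolipin synthesis. Its values were 4.48 in SW DMSO, 3.73 in NS rottlerin and 3.85 in SW rottlerin, again highest in SW DMSO. The nearest NS DMSO peak was 4.37 kb away. The sequence of the downstream region, the strongest at *SOCS3* and absent from NS DMSO, is shown in full on the forward strand of GRCh37. Capitals mark 1 match to the AP1 letters TGANTCA and 1 to the RUNX letters TGTGGT, read on either strand.
SOCS3 downstream region: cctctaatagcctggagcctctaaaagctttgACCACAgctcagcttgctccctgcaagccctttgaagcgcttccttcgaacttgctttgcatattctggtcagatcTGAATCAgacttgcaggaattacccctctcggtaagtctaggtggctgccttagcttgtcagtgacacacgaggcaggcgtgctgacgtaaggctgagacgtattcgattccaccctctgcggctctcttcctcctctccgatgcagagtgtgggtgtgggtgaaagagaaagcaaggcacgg

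The *SOCS3* promoter differed from those of *SOCS1*, *CISH* and *PIM1* in the lists it appeared in. A peak was called in SW rottlerin alone, with a fold enrichment of 3.75 (chr17:76356233-76356491, mid-point 204 bp upstream), and it did not reach the TSS. The other 4 regions held peaks in 2 or 4 lists. The region 21.8 kb upstream in *PGS1* had 2.62 in NS DMSO, 3.08 in SW DMSO, 4.24 in NS rottlerin and 3.43 in SW rottlerin. NS DMSO was the lowest and NS rottlerin 1.62 times higher. The NS DMSO peak there was among the weakest of its list, above 0.832% of its peaks, with a −log10 q of 1.19. The region 18.9 kb upstream had 2.68 in SW DMSO and 3.07 in NS rottlerin, and its mid-point was 314 bp from the *PGS1* TSS. Downstream, the region at 44.2 kb had 2.72 in SW DMSO and 3.30 in SW rottlerin, so it was seen under both SW labels. The SW DMSO peak there was also weak, above 1.57% of the peaks of its list, with a −log10 q of 1.26. The region at 45.7 kb had 3.25 in NS DMSO and 3.63 in SW DMSO, so it was seen under both DMSO labels.

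*CISH*, an SH2 protein that binds phosphorylated cytokine receptors and is a classical target of STAT5, had a promoter region in all lists. It spanned chr3:50649186-50649646, and its mid-point lay in the 5′ untranslated sequence of a transcript of the neighbouring kinase gene *MAPKAPK3*. The fold enrichment was 3.06 in NS DMSO, 3.29 in SW DMSO, 2.65 in NS rottlerin and 3.54 in SW rottlerin. SW rottlerin was 1.33 times NS rottlerin, and the highest standing of any of the 4 values was above 28.2% of the peaks of its list, in SW rottlerin. What differed more was the extent of the peak. The NS DMSO peak was 187 bp wide (chr3:50649408-50649594), against 386, 314 and 397 bp, and it ended farthest from the TSS. The SW rottlerin peak alone reached over the TSS.

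The *CISH* promoter held 4 copies of the STAT letters, in 2 pairs. Counting back from the TSS to the first base of each match, they lay at −112 and −129 (the proximal pair) and at −230 and −241 (the distal pair). The distal pair lay under the peaks of all 4 lists. The proximal pair lay under the peaks of SW DMSO, NS rottlerin and SW rottlerin, and outside the NS DMSO peak. Where a called peak ends can depend on the depth of the library, which is unknown. A match outside a peak, here and below, is therefore not shown to be closed. The pairs are shown on the forward strand of GRCh37, at chr3:50649307-50649336 and chr3:50649422-50649451, with each match in capitals.
CISH proximal pair: ccTTCCCGGAAgcagcgtcTTCCTAGAAcc
CISH distal pair: cagatTTCCAAGAActTTCCAGGAAaacgg

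**Figure D2:**
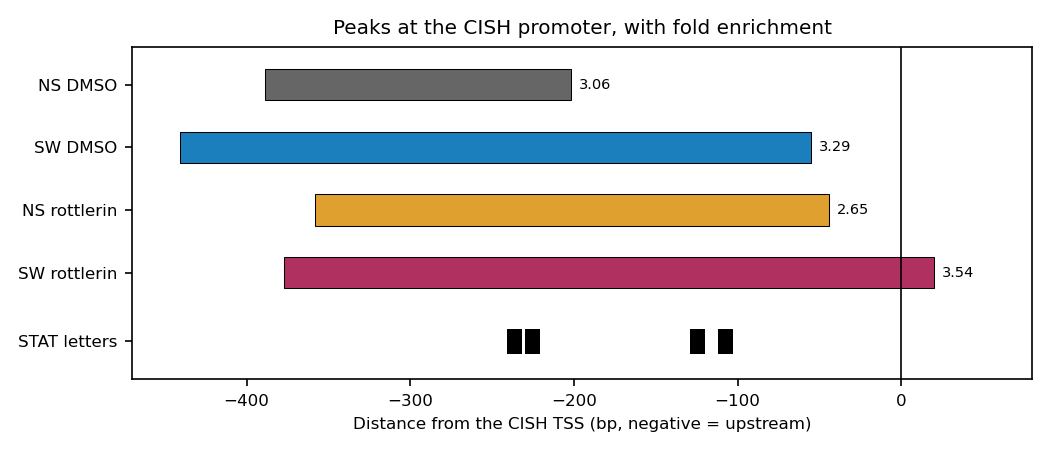
Peaks at the *CISH* promoter in the 4 lists, drawn to scale against the distance from the TSS in bp, with the fold enrichment beside each bar and the STAT matches as black marks. The NS DMSO peak covers the distal pair of marks only, and the peaks of the other 3 lists cover both pairs.

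The widest region of the 25 was 4.81 kb upstream of *CISH* in an intron of *MAPKAPK3* (chr3:50653496-50654537, 1042 bp). It was called in all lists over nearly the same stretch, with peaks of 1012 to 1041 bp, and its values were 3.28 in NS DMSO, 4.15 in SW DMSO, 3.68 in NS rottlerin and 3.84 in SW rottlerin. NS DMSO was again the lowest. The region 12.5 kb upstream had 2.69 in NS DMSO, 3.83 in NS rottlerin and 3.53 in SW rottlerin, with no peak in SW DMSO. It held another STAT match, the last of the 5 at *CISH*, at −12405 from the TSS, which lay under the peaks of both rottlerin-labelled lists and outside the NS DMSO peak. It is shown at chr3:50661592-50661621 in the same format.
CISH 12.5 kb upstream: taggagaggcTTCCTGGAAgaggttgccag

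Far downstream of *CISH*, 2 regions at 42.5 and 44.0 kb from its TSS were seen in the rottlerin-labelled lists alone. Their values were 3.32 and 3.04 at the first, and 3.44 and 3.63 at the second, in NS rottlerin and SW rottlerin. The first lay 126 bp from the TSS of *HEMK1*, a methyltransferase gene, which is the nearest coding start for both. The highest *CISH* fold enrichment in any list, 4.50, came from the region 14.8 kb upstream, which was called in NS DMSO alone (chr3:50663899-50664135). The strongest *SOCS3* region, by contrast, had no peak in that list.

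*PIM1*, a serine/threonine kinase that STAT factors induce, had the peak with the highest fold enrichment among the 25 regions. It lay 22.1 kb downstream (chr6:37159569-37160437, 869 bp, intergenic), with 4.16 in NS DMSO, 4.49 in SW DMSO and 7.97 in SW rottlerin, and no peak in NS rottlerin. The SW rottlerin value was 1.92 times that of NS DMSO and above 99.1% of the peaks of its list. By score, which follows from the q-value, this peak had 152, below the 176 of the SW DMSO peak just downstream of *SOCS3*. The SW rottlerin peak was 869 bp wide, against 328 bp in NS DMSO and 341 bp in SW DMSO. The region 13.3 kb downstream (chr6:37151074-37151370, 297 bp, intergenic) had 3.46 in NS DMSO, 2.76 in SW DMSO, 3.74 in NS rottlerin and 5.30 in SW rottlerin. SW rottlerin was the highest there too, 1.53 times NS DMSO, and SW DMSO the lowest.

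The sequence of these 2 regions is shown because they gave the largest fold enrichments at *PIM1* and both were highest in SW rottlerin. The region at 13.3 kb is whole. Its capitals are a STAT match that overlaps a match to the NFAT letters TGGAAA, followed by a RUNX match. For the region at 22.1 kb, the first 300 bases common to its peaks are shown (chr6:37159626-37159925). Their capitals are RUNX, NFAT and RUNX matches in this order. This stretch differs from the central 300 bp of the region used for the motif counts, where the only match was to the NFκB letters. Both are on the forward strand of GRCh37.
PIM1 13.3 kb downstream: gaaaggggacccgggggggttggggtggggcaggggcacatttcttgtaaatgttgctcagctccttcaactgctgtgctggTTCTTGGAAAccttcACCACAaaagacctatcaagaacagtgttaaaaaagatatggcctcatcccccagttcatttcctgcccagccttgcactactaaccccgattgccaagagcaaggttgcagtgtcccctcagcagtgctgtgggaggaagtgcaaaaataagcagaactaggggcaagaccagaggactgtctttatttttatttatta
PIM1 22.1 kb downstream: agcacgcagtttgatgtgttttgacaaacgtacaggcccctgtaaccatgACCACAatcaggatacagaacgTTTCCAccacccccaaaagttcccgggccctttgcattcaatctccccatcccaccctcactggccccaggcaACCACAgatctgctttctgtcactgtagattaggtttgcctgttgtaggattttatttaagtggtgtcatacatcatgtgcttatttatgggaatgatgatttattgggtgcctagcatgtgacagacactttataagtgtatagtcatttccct

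The *PIM1* promoter region (chr6:37137508-37137934) was the only one of the promoter regions in all 4 lists that was highest in NS DMSO. Its fold enrichment was 4.78 in NS DMSO, 4.63 in SW DMSO, 4.40 in NS rottlerin and 4.09 in SW rottlerin. The peaks were 327 to 427 bp wide, and the SW rottlerin peak alone reached the TSS. An intronic region 2.21 kb downstream was also in all lists, with 3.91, 4.50, 4.65 and 4.17 in the same order. SW rottlerin alone had 2 further regions, an intronic one at 3.49 kb (2.98) and an intergenic one at 40.5 kb (3.15).

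**Figure D3:**
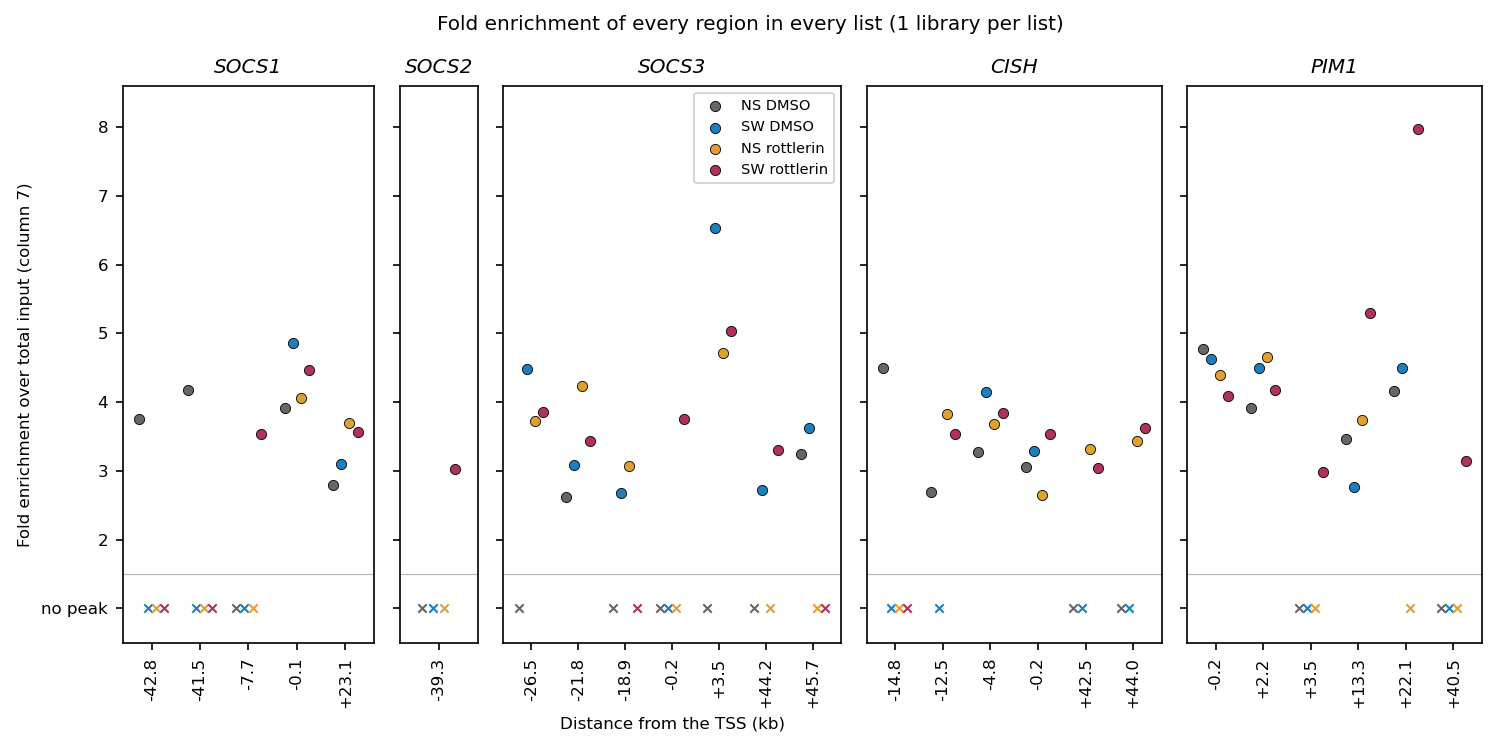
Fold enrichment (column 7, linear axis) of each of the 25 regions in each list, with the regions of a gene in order of distance from the TSS in kb. Crosses on the lowest line mark lists with no peak. The 2 highest points are the SW rottlerin value of 7.97 at *PIM1* and the SW DMSO value of 6.53 at *SOCS3*, and no other point is above 5.30.

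Over all peaks at the 5 genes, the fold enrichment was a little below the level of each list. The median was 3.60 at the feedback genes against 4.05 for the NS DMSO list, 3.89 against 4.03 for SW DMSO, 3.74 against 4.08 for NS rottlerin and 3.59 against 4.03 for SW rottlerin. Peaks of regions in all 4 lists ran from 2.62 to 5.30 with a median of 3.79. Peaks of the 8 regions in 1 list ran from 2.98 to 4.50 with a median of 3.64. The score, which follows from the q-value, gave another picture. Its median at the feedback genes was below that of the list in NS DMSO alone, 42.5 against 57. The median score was above that of the list in SW DMSO (59.5 against 54), NS rottlerin (61 against 57) and SW rottlerin (57.5 against 53).

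Where a region held a peak in NS DMSO and in another list, the ratio of their fold enrichments was taken, and 1.5 times was used as the size of a change. In SW DMSO against NS DMSO, none of the 10 shared regions was 1.5 times higher, against 1.67% of all shared regions, and none was 1.5 times lower, against 2.18%. The ratios at the 10 ran from 0.799 to 1.27, with a median of 1.11 against 0.98 for all shared regions. In NS rottlerin, 1 of 9 was 1.5 times higher, the *SOCS3* region 21.8 kb upstream, against 3.19%, and none was lower, against 1.38%. The median ratio there was 1.12 against 1.04. In SW rottlerin, 2 of 10 were 1.5 times higher, both downstream of *PIM1*, against 4.50%, and none was lower, against 1.54%. The median ratio was 1.22 against 1.06. The 3 comparisons share the NS DMSO list, so they are not independent of each other.

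**Figure D4:**
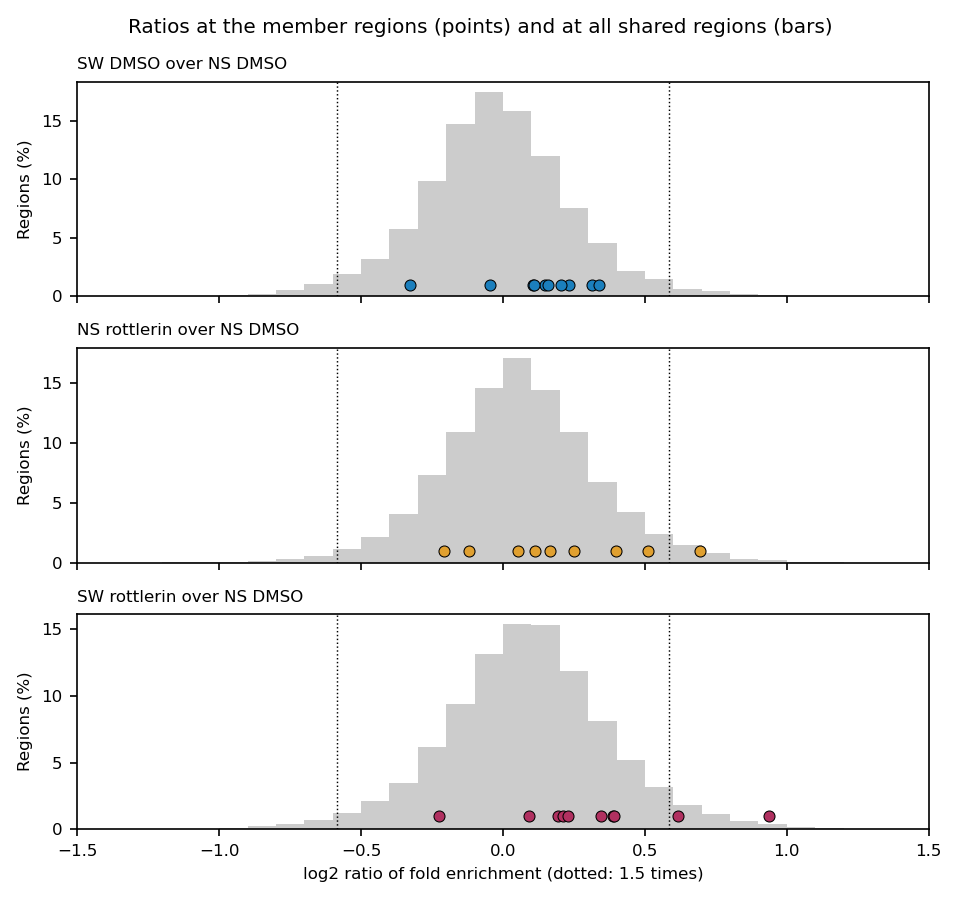
Ratios of fold enrichment to NS DMSO on a log2 axis, for the regions of the 5 genes (points, drawn near the base line) and for all regions shared by the lists (grey bars, percent of regions). Points lie on both sides of 0 in each panel, and 3 points pass the dotted line of 1.5 times on the higher side, 1 in NS rottlerin and 2 in SW rottlerin.

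The regions were richer in GC than the average region. The median GC content of the central 300 bp was 54.3% (39.0 to 76.0%) against 46.3% for all merged regions, and the median number of CpG was 10 against 4. In the 8 regions of all 4 lists the median GC was 56.3% against 57.0% for all such regions. In the 11 regions without an NS DMSO peak it was 54.3% against 44.3%.

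The letters of 10 motif families were sought on both strands of the same 300 bp, which reach beyond the ends of the narrower regions. STAT letters were found in 5 of the 25 regions (20%) against 9.53% of all merged regions, 2 of them at *CISH*. Another was the *SOCS3* promoter region, where the 2 matches lay beyond the ends of the region and so under no peak. AP1 letters were found in 5 (20%) against 17.9%, at *SOCS3* in 4 regions and at *PIM1* in 1. RUNX letters were found in 10 (40%) against 32.8%, SP/KLF letters GGGCGG in 9 (36%) against 22.6%, and NFAT letters in 7 (28%) against 27.9%. The E-box letters CACCTG, bound by bHLH factors, were found in 5 (20%) against 21.4%. ETS letters CCGGAA were found in 3 (12%) against 10.5%, NFκB letters GGGNNTTTC in 2 (8%) against 5.03%, AGATAA, the letters of GATA factors, in 2 (8%) against 21.0%, and EGR letters GCGTGGG in none against 4.25%. Matches of different families overlapped in 2 regions. A match is a run of letters and not a measured binding site.

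Over the whole length of the regions, and not beyond their ends, 8 STAT matches lay in 4 regions. A merged region is made of its peaks, so each of these matches lies under at least 1 peak by construction. Of the 8, 5 lay under the peaks of all 4 lists, and no share over all merged regions is given for this count.

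The rest of the pathway was read from 27 genes by the same rule. All 27 had at least 1 region, and none of their 149 regions was shared with the feedback genes. Of these regions, 64 (43.0%) held no NS DMSO peak, 57 (38.3%) held a peak in all 4 lists and 6 (4.03%) held one in every list but NS DMSO. The shares over all merged regions were 53.5%, 26.6% and 7.08% in the same order. The kinases and factors (JAKs, TYK2 and STATs, 11 genes) had 62 regions, 45.2% of them without an NS DMSO peak. The close relatives *SOCS4* to *SOCS7*, *PIM2* and *PIM3* had 21 regions, 28.6% of them without an NS DMSO peak and none in every list but NS DMSO. The 10 other negative regulators, the PIAS proteins, phosphatases and the adaptor SH2B3, had 66 regions, 45.5% of them without an NS DMSO peak. *STAT5B*, one of the STATs that interleukin-2 activates, and *SH2B3*, an adaptor that restrains JAK2, had the most regions without an NS DMSO peak. Each had 6, of 12 regions at *STAT5B* and of 8 at *SH2B3*. *JAK1* and *STAT5A* followed with 5 each, of 7 and of 11 regions. The share was below the 53.5% of all merged regions at *STAT5B* and *STAT5A*, and above it at *SH2B3* and *JAK1*. *STAT5A* and *STAT5B* are neighbours and share 11 regions, so their counts are not separate.

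Promoter regions were found at 18 of the 27 genes, and at 15 they held a peak in all 4 lists. Among all coding genes, 45.0% had a region within 1 kb of the TSS and 30.4% had one in all 4 lists. *SOCS4*, *SOCS5*, *SOCS7*, *PIM2* and *PIM3* had one in all lists, as did *SOCS1*, *CISH* and *PIM1*. *SOCS6*, like *SOCS2*, had none within 1 kb. At 3 genes the promoter region lacked an NS DMSO peak. At *JAK3*, the kinase of the common cytokine receptor chain, it was in every list but NS DMSO. At *STAT4*, which transmits interleukin-12, and at *PIAS3*, an inhibitor of STAT3, it was in SW rottlerin alone, the pattern of the *SOCS3* promoter. The genes named in this comparison of promoters were chosen after their values were seen.

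**Figure D5:**
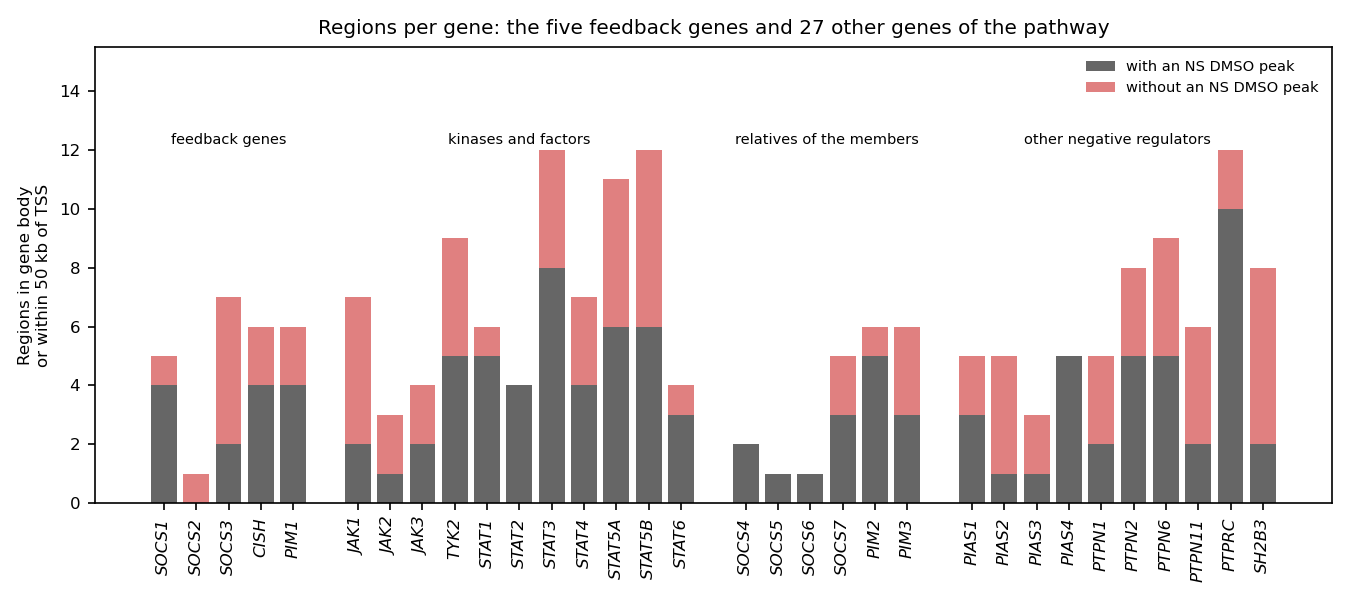
Number of merged regions in the gene body or within 50 kb of the TSS, for the 5 feedback genes and 27 other genes of the pathway. Grey bars count regions with an NS DMSO peak and red bars, stacked on them, regions without one. The red part is largest at *STAT5B* (6 of 12 regions) and *SH2B3* (6 of 8), and at *SOCS3* it makes up 5 of 7 regions.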

How the data were processed

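FAIRE-seq peak lists of 4 Jurkat samples were used, 1 library each. Per the study's methods and the submitters' processing notes, the authors used cutadapt for adapter trimming, Bowtie2 for mapping to hg19, Picard for duplicate removal and MACS2 for broad peaks against total input (versions not given in the sources used here). Each deposited list gives a score (the whole part of 10 times the −log10 of q), the fold enrichment as a ratio (column 7), and the −log10 of p and q. The highest q-value in a list was 0.0946 to 0.0983, and every peak was kept. Depth is unknown from these lists.

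Peaks that overlapped or touched were merged, giving 40731 regions, and the 28 not on a numbered chromosome, X or Y were dropped. Bedtools 2.31.1 gave the same regions, and the merge was tested on simulated data. Genes and starts came from GENCODE release 44 on GRCh37, sequences from that genome, and motifs were matched as letters in the central 300 bp. A region takes the highest column 7 of a list in it. The genes, the lists of pathway and marker genes and the motifs were chosen with earlier results of these data known. The text names all 5 genes and their regions, and of the pathway the 3 genes with most regions without an NS DMSO peak (4 with a tie). The rule also covered pathway genes with no region, of which there were none, and other pathway genes are named as members of their list or were chosen after their values were seen. No test could be made. Alternatives varied the window, the TSS, the q limit, the score, the number of peaks, the merge, the fold, the scaling and the motif window. Python 3.11.15, numpy 2.4.6, pandas 2.3.3, pysam 0.24.0 and matplotlib 3.10.9 were used. The sequence of some regions is not reported here.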

Additional observations from a re-analysis of the deposited data

Results flagged for a closer look

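Among the 8 regions called in every list, there were 4 where the fold enrichment moved one way from the NS to the SW label after DMSO and the other way after rottlerin. Of all 10841 regions called in every list, 45.4% did so, close to the 50.0% here. The SW over NS ratio was 1.11 after DMSO and 0.966 after rottlerin at the *SOCS1* region 23.1 kb downstream, and 1.17 and 0.809 at the *SOCS3* region 21.8 kb upstream. It was 1.15 and 0.897 at the *PIM1* intron, 2.21 kb downstream, and 0.799 and 1.42 at the *PIM1* region 13.3 kb downstream. At the other 4 regions, the *SOCS1*, *CISH* and *PIM1* promoters and the *CISH* region 4.81 kb upstream, both ratios went the same way. With 1 library per list, the difference between the pairs of ratios was not tested, and it rests on the labels, which are in doubt.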

How the results depend on the processing

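No paired analysis was possible because each group has 1 library and no result comes from a test. Of 109 alternative values over 26 results, 76 stayed within 1.5 times the value given above and 33 did not. With the window at 20 kb the count was 13 regions. Of these, 5 lacked NS DMSO (38.5% against 53.5% of all regions) and 1 was in every other list. At 100 kb the counts were 40 regions, 21 without an NS DMSO peak and 13 in all 4 lists. The 21 were 52.5%, close to the 53.5% of all regions, where the share at 50 kb was 44%. With the higher-scoring 50% of each list, 2 regions were in all 4 lists. With the 18998 best peaks of each list, 7 regions lacked NS DMSO (33.3% against 41.5% of all regions) and 5 were in all 4 lists. Without the longest list, SW rottlerin, 6 lacked NS DMSO. With 25% higher, or the inverse, as the size of a change, 1 region was higher and 1 lower in SW DMSO, 3 were higher in NS rottlerin and 5 in SW rottlerin. With 2 times, 0 were higher in NS rottlerin and 0 in SW rottlerin. With the score in place of the fold enrichment, 3 were higher and 1 lower in SW DMSO, 4 higher and 1 lower in NS rottlerin, and 6 higher in SW rottlerin. Scaling by the list median left 1 higher in SW rottlerin. A q-value limit of 0.05 left 0 higher in NS rottlerin, because the NS DMSO peak at the *SOCS3* region 21.8 kb upstream was above it. The same limit left 6 regions in all 4 lists, because it also removed the SW DMSO peak at the *PIM1* region 13.3 kb downstream. No share over all regions is given for these counts of higher and lower regions, so they show nothing particular to the 5 genes. The depth behind each list is unknown, and a missing peak cannot be told apart from a shallow library.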
